A study of Mus musculus with 2 samples.

Results

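The cells described are C1q macrophages of mouse melanomas that also carry messenger RNA of Folr2, Cd163 or Cbr2, called positive macrophages from here on. They were chosen by measured values: at least 10 molecules of C1qa, C1qb and C1qc together, at least 2 of Folr2, Cd163 and Cbr2 together and at most 1 of the T cell genes Cd3e, Cd3d and Trac. Cells without a single sample tag, with under 200 genes found or with over 25% of molecules from mitochondrial genes were left out. The rule found 520 cells, which are 4.96% of the 10491 kept cells and 38.1% of the 1366 C1q macrophages, out of 14899 cells in the whole series. The 846 C1q macrophages with fewer than 2 molecules of Folr2, Cd163 and Cbr2, called other C1q macrophages, are the cells they are set against.

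Tumours had grown under the skin of female C57BL/6 mice, at the right flank, from B16F10 cells, a pigmented mouse melanoma line, either with a Tyr knockout, with an Oca2 knockout or wild type, in 3 mice for each of the 3 tumour genotypes. Leukocytes were sorted for CD45 (antibody to CD45.2), given 1 sample tag per genotype, pooled and captured together for single-cell whole transcriptome sequencing on the BD Rhapsody system. The labels used here do not say which genotype has tag 8, 9 or 10, nor that mice were tagged apart, so each tag is 1 sample of unnamed genotype that pools its mice and no genotype was compared. The host mice carried no allele that the labels name beyond the strain.

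C1q starts the classical pathway of complement, and in tissues macrophages are its main source. Folr2 encodes folate receptor beta, Cd163 the scavenger receptor that takes up haemoglobin bound to haptoglobin, and Cbr2 a carbonyl reductase used in mice as a marker of resident macrophages. In mouse and human tissues, macrophages with FOLR2, LYVE1, CD163 and MRC1 are often found beside blood vessels and live long without replacement by monocytes, while macrophages rich in MHC class II are more often recent descendants of monocytes.

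The total count in the class was 2576183, 1471227 and 3308160 molecules for the positive macrophages of tags 8, 9 and 10, against 2061664, 2947786 and 3028958 for the other C1q macrophages. Positive macrophages were the deeper cells, with medians of 12934, 11483 and 14283.5 molecules per cell against 9331, 8092 and 8754. Counts and lost calls in thinned and in depth-matched cells are given with the tests. Mitochondrial molecules had medians of 4.30%, 4.23% and 3.86% in positive macrophages and 4.22%, 3.96% and 3.99% in other C1q macrophages. All 14899 cell indices in the 1 capture were distinct. A class cut at a number of molecules is a range of cells and not a type: 101 positive macrophages had exactly 2 molecules of the 3 genes and 177 other C1q macrophages had exactly 1.

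The label holds for the macrophage markers and only in part for Folr2 and Cd163. Of the 10 macrophage markers, all were detected, at a summed 6916 to 8390 CPM (6 of the 10 are genes of the rule) in positive macrophages and 5509 to 7270 CPM in other C1q macrophages, where CPM is molecules per 1000000 molecules of the class in that tag. Of the 520 positive macrophages, 430 had Folr2 (82.7%), 424 had Cbr2 (81.5%) and 80 had Cd163 (15.4%), and no cell entered through Cd163 alone. Folr2 with Cbr2 was the usual pair, in 264 cells (50.8%), and all 3 genes were found in 70 (13.5%). The 87 cells with Cbr2 alone (16.7%) had neither gene of the label, so the class is at least as much a Cbr2 class as a Cd163 class. Folr2 (ENSMUSG00000032725.10) lies at chr7:101839988-101857194 on the minus strand of GRCm38, Cd163 (ENSMUSG00000008845.9) at chr6:124304656-124330527 on the plus strand and Cbr2 (ENSMUSG00000025150.10) at chr11:120729489-120732114 on the minus strand. Folr2 stood at 317, 290 and 397 CPM in the positive macrophages of tags 8, 9 and 10, Cd163 at 78.8, 30.6 and 169.6 CPM and Cbr2 at 531, 315 and 578 CPM. These genes and C1q chose the cells, so their levels are a description and were not tested. C1qa was at 1007, 1013 and 1345 CPM in positive macrophages against 920.1, 956 and 1352 CPM in other C1q macrophages, so per molecule of RNA the classes overlapped in C1qa.

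Outside these cells the 3 genes were found in smaller shares of cells, which for other C1q macrophages follows from the rule. After each cell was thinned to 2000 molecules, Folr2 was found in 40.9% of 516 positive macrophages and in 3.56% of 815 other C1q macrophages. It was found in 0.818% of 978 monocytes (Ly6c2 or Chil3 positive) and in 0.123% of 1622 T cells (T receptor positive, without C1q). Before thinning the shares were 82.7%, 10.2%, 3.41% and 0.481%, at median depths of 12954.5, 8545.5, 5958 and 3568 molecules. Because these T cells were chosen to have no C1q molecule, their shares may understate macrophage RNA carried over into other cells. Cd163 was found in 6.78% of thinned positive macrophages and 0.0617% of T cells, before thinning in 15.4% and 0.160%. In thinned other C1q macrophages and monocytes it was found in 0.123% and 0.716%. Cbr2 was found in 50.6% of thinned positive macrophages, 2.94% of other C1q macrophages, 3.37% of monocytes and 0.493% of T cells. Before thinning its shares were 81.5%, 10.3%, 6.00% and 1.18%.

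Positive macrophages made up 47.1% of the C1q macrophages of tag 8 (181 of 384, exact 95% Clopper-Pearson interval 42.1 to 52.3), 26.1% of those of tag 9 (117 of 448, 22.1 to 30.4) and 41.6% of those of tag 10 (222 of 534, 37.4 to 45.9). Of all kept cells they were 5.43%, 3.36% and 6.05%. Tag 9 had the lowest share on both scales, and its interval did not overlap those of the other tags. These intervals cover counting error only, with 1 sample per unnamed genotype there is no replicate behind the difference, and it was not tested.

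**Figure D1:**
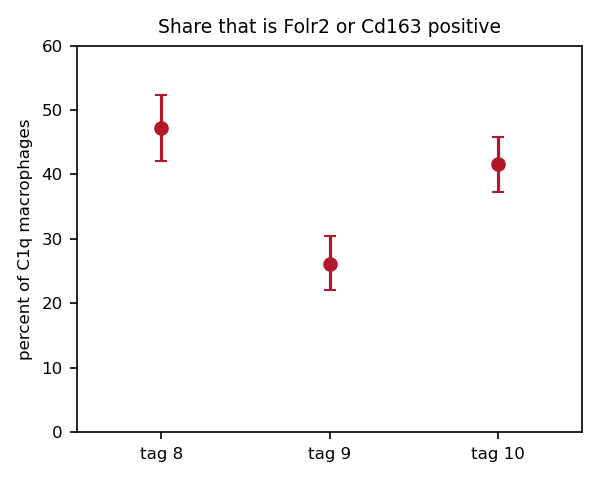
Percent of C1q macrophages that were positive macrophages in tags 8, 9 and 10 (points, with exact 95% Clopper-Pearson intervals as bars). Tag 9 lies lowest at 26.1%, below 41.6% in tag 10 and 47.1% in tag 8.

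Over the tags together, levels of most genes shown followed the number of Folr2, Cd163 and Cbr2 molecules in a graded way, while Itgax was lower from the rule on. Just inside the rule, at 2 molecules, Pf4 was at 988, 1044 and 1513 CPM in tags 8, 9 and 10, against 739.8, 1252 and 718 CPM just outside it, at 1 molecule. Selenop was at 953, 1099 and 1654 CPM against 1164, 1229 and 906 CPM. Both genes were thus higher just inside in tag 10, and in tag 9 both were lower. Mrc1 was at 669.5, 712 and 584 CPM against 639.98, 677 and 489 CPM, a small difference of 1 direction. Cxcl9 was at 199, 351 and 560.5 CPM against 17.4, 135 and 847 CPM, higher just inside in tags 8 and 9 and lower in tag 10. H2-Ab1 was lower just inside in each tag, at 2863, 3417 and 2552 CPM against 3946, 4016 and 5008 CPM, as was Itgax, at 76.2, 70.3 and 63.4 CPM against 219, 124 and 259 CPM. At the far ends, the 136 cells with at least 16 molecules had 168.7 CPM of Lyve1, 3172 of Pf4, 13.3 of Cxcl9 and 1458 of H2-Ab1, against 0.807, 372, 821 and 6217 CPM in the 669 cells with none. Median depth differed along the same scale, with 15843 molecules in cells with at least 16 and 8537 in cells with none.

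**Figure D2:**
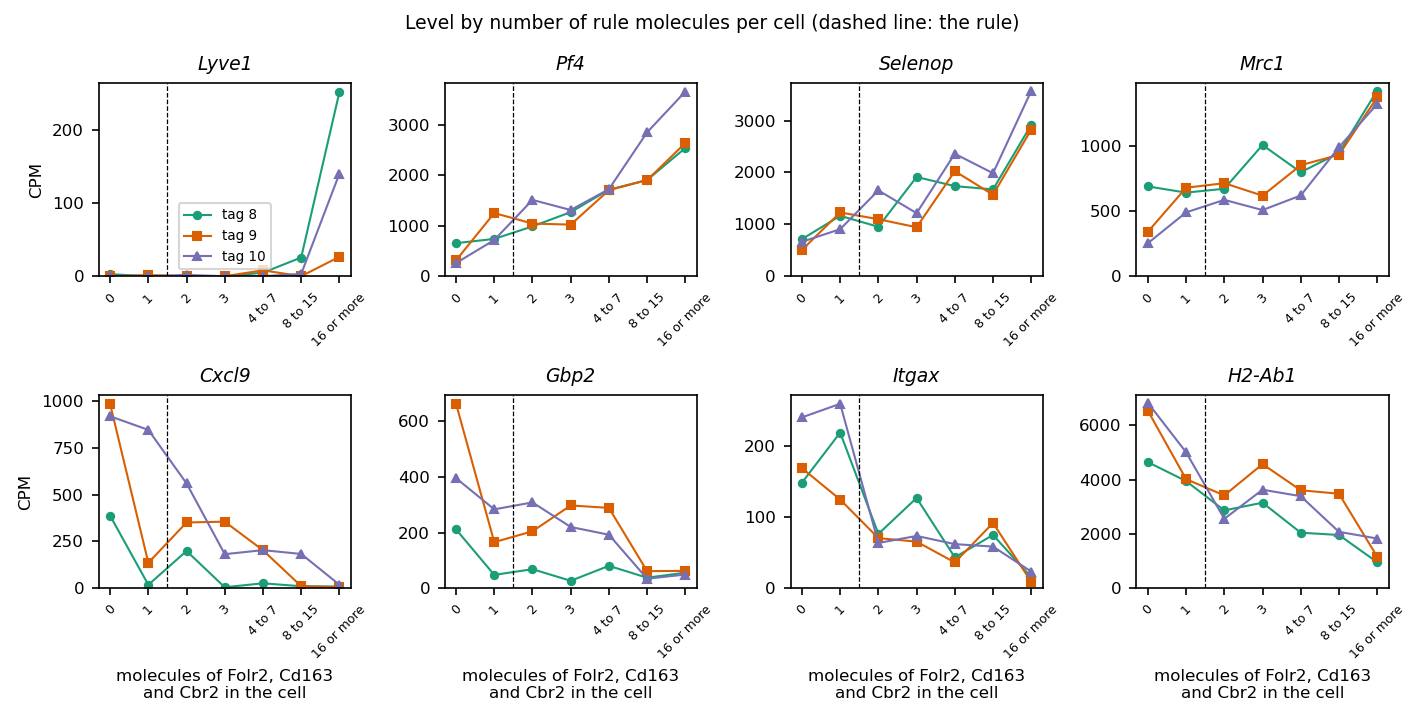
Level of 8 genes (CPM, vertical axes from 0) in C1q macrophages grouped by their molecules of Folr2, Cd163 and Cbr2 (horizontal axes), with 1 line per tag and the rule as a dashed line. Lyve1 appears mainly in cells with at least 16 molecules (168.7 CPM over the tags together), while H2-Ab1 is lowest there (1458 CPM).

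Genes outside the rule were compared between positive and other C1q macrophages in sums per tag with edgeR's quasi-likelihood test. The tag was a block, and Benjamini-Hochberg adjustment ran over 9315 genes. Mitochondrial genes and genes with too few molecules were left out of the test. At an adjusted p under 0.05, 282 genes were higher (3.03% of those tested) and 346 lower (3.71%), and 282 of 282 and 340 of 346 moved the same way in all 3 tags. Among all 9315 genes, 2054 were higher and 1687 lower in each of the 3 tags. The test favours genes that move alike in the tags, so the agreement among called genes is no separate evidence. Where tag values of the classes are said not to overlap, the share of such genes among all tested was not counted. Those statements are a description only. Since the classes were cut on genes of the same cells, these tests say which other genes differ together with Folr2, Cd163 and Cbr2. Without tag 9 the counts were 135 higher and 121 lower, and with each cell thinned to 2000 molecules, where 5366 genes could be tested, 129 and 128. In cells matched on depth within each tag they were 218 and 236, and in a fit without the tag as a block 114 and 75. As the tags are samples of different genotypes and nothing says that mice were kept apart, the p-values measure only the spread of the class difference between these 3 tags.

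Some calls of the genes in the lists and among those named rest on the processing. Of 106 such calls, 17 missed the threshold after thinning, among them C4b, Clec10a, Cxcl10, Hbb-bs, Hk2, Il23a, Il4ra, Irf8, Irgm1, Ms4a4c, Nos2, Nr1h3, Pdgfb, Slc2a1 and Tgfbr1. Others, among them Lyve1 and Hbb-bt, had too few molecules to be tested after thinning. The calls not counted as missed were therefore not all kept. In depth-matched cells 13 did, among them Cd36, Hbb-bs, Hk2, Hspa1a, Isg15, Lamp1, Lilrb4a, Lipa, Ly6c2, Ms4a4c, Tgfbr1 and Top2a. In DESeq2 23 did, among them C3, C4b, Cadm1, Cd36, Ctsl, F13a1, Gja1, Hbb-bs, Hk2, Hmox1, Iigp1, Il4ra, Irgm1, Lamp1, Lilrb4a, Ly6c2, Ms4a4c, Nr1h3, Plac8, Slc2a1, Tgfbr1 and Top2a. Without the tag as a block 57 did.

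Of the 15 genes named as highest, 5 are in the resident-type macrophage list (Lyve1, Ltc4s, Gas6, Pf4 and Fcgrt) and 2 are globins. Lyve1, the hyaluronan receptor of lymphatic vessels that also marks perivascular macrophages, was at 88.9, 6.80 and 57.4 CPM in positive macrophages (429 molecules) and at 1.94, 0.339 and 0.330 CPM in other C1q macrophages (6 molecules). Every tag was higher in positive macrophages, with tag 9 far below tags 8 and 10, and the fitted log2 fold change was 5.86 (SE 0.33, adjusted p = 8.16e-06), a value that leans on 6 molecules and was 5.20 without tag 10. After thinning, Lyve1 was found in 4.65% of positive macrophages, in 0.123% of other C1q macrophages and in 0 of 1622 T cells, which by the limit of 3 counts of the total allows a share of up to 0.185% (10.4%, 0.473% and 0.107% before thinning). Lyve1 (ENSMUSG00000030787.4) lies at chr7:110850607-110863239 on the minus strand of GRCm38.

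Pf4, the chemokine CXCL4, was at 1882, 1685 and 2656 CPM in positive macrophages against 681, 517 and 347 CPM in other C1q macrophages, groups that did not overlap (log2 fold change 2.001, SE 0.24, adjusted p = 0.000636). It was found in 75.8% of thinned positive macrophages, 28.0% of other C1q macrophages and 2.03% of T cells (89.0%, 41.8% and 4.55% before thinning). Its neighbour on chromosome 5, Ppbp, which encodes the chemokine CXCL7 and ends 2371 bases before Pf4 begins, was at 336, 296 and 1251 CPM against 108, 83.5 and 133 CPM (log2 2.25, SE 0.26, adjusted p = 0.00058). Both genes are also known from platelets. The summed level of 5 other platelet genes (Itga2b, Gp1ba, Gp5, Clec1b and Treml1), chosen after these values were seen, was 0 to 3.93 CPM in positive macrophages and 1.46 to 5.28 CPM in other C1q macrophages.

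Ltc4s, which makes leukotriene C4, was at 108, 24.5 and 189 CPM in positive macrophages and at 14.6, 3.39 and 13.9 CPM in other C1q macrophages (log2 3.30, SE 0.20, adjusted p = 1.15e-05). Gas6, the ligand of the receptors Tyro3, Axl and Mertk that bridges them to dying cells, was at 144, 79.5 and 137 CPM against 23.3, 10.9 and 20.1 CPM (log2 2.72, SE 0.13, adjusted p = 6.02e-06). Neither gene overlapped between the classes. Gas6 rose while its receptor Axl fell, at 66.0, 76.1 and 94.3 CPM in positive macrophages against 142, 152 and 242 CPM (log2 -1.19, adjusted p = 7.26e-05). The other receptor on macrophages, Mertk, did not pass the test (log2 0.34, adjusted p = 0.157).

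Of the 15 genes named as highest, the remaining ones cover receptors, transporters and binding proteins. Ednrb, the endothelin B receptor, was at 198, 136 and 391 CPM in positive macrophages against 77.1, 30.2 and 20.5 CPM (log2 2.51, adjusted p = 0.00405), and did not pass the test without tag 9 (log2 2.69, adjusted p = 0.0606). It was 3.26 without tag 8 and 1.65 without tag 10. Gja1, the gap junction protein connexin 43, was at 37.3, 59.8 and 83.1 CPM against 19.9, 14.2 and 5.28 CPM (log2 2.23, adjusted p = 0.00759). Without tag 9 Gja1 also missed the threshold (log2 2.36, adjusted p = 0.0928), as it did in DESeq2 (2.26, adjusted p = 0.135), and its value was 2.91 without tag 8 and 1.45 without tag 10. Fcgrt, the neonatal Fc receptor that recycles antibody and albumin, was at 199, 123 and 210.1 CPM against 52.9, 42.7 and 53.8 CPM (log2 1.79, adjusted p = 1.62e-05). Igfbp4, which binds insulin-like growth factors (log2 2.12), Tmem8 (1.93), the protease inhibitor Serpinb6a (1.86), the endosomal sodium-proton exchanger Slc9a9 (1.80) and Fcrls, a mouse Fc receptor-like protein (1.73), rose in 3 of 3 tags with adjusted p of at most 0.000254.

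Hbb-bt and Hbb-bs, the beta globins of red cells, were also among the 15, but their size came from tag 9. Hbb-bt was at 8.54, 298 and 20.3 CPM in positive macrophages against 2.91, 12.2 and 3.30 CPM in other C1q macrophages (log2 3.89, adjusted p = 0.000185), and 2.25 on the log2 scale without tag 9. Hbb-bs was at 52.0, 335 and 49.0 CPM against 36.9, 42.4 and 22.8 CPM (log2 1.68, adjusted p = 0.0199), and missed the threshold without tag 9 (log2 0.80, adjusted p = 0.113). It missed it in 10 of 18 alternatives run, among them thinning (log2 0.48, adjusted p = 0.579), depth matching (0.22, adjusted p = 0.884) and DESeq2 (1.49, adjusted p = 0.431). All haemoglobin genes together stood at 117, 1202 and 143 CPM in positive macrophages, against 124, 112 and 59.1 CPM in other C1q macrophages, while the shares of cells with such a molecule were 27.1%, 21.4% and 22.1% against 22.7%, 17.8% and 21.5%. Monocytes were at 38.4, 630.4 and 37.7 CPM and all other kept cells at 633, 989.7 and 910.2 CPM, so that tag 9 was the highest outside the positive macrophages as well, except in other C1q macrophages. The globin genes are near-identical copies between which reads may have been split, and the part of free red cell RNA in these values was not tested.

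**Figure D3:**
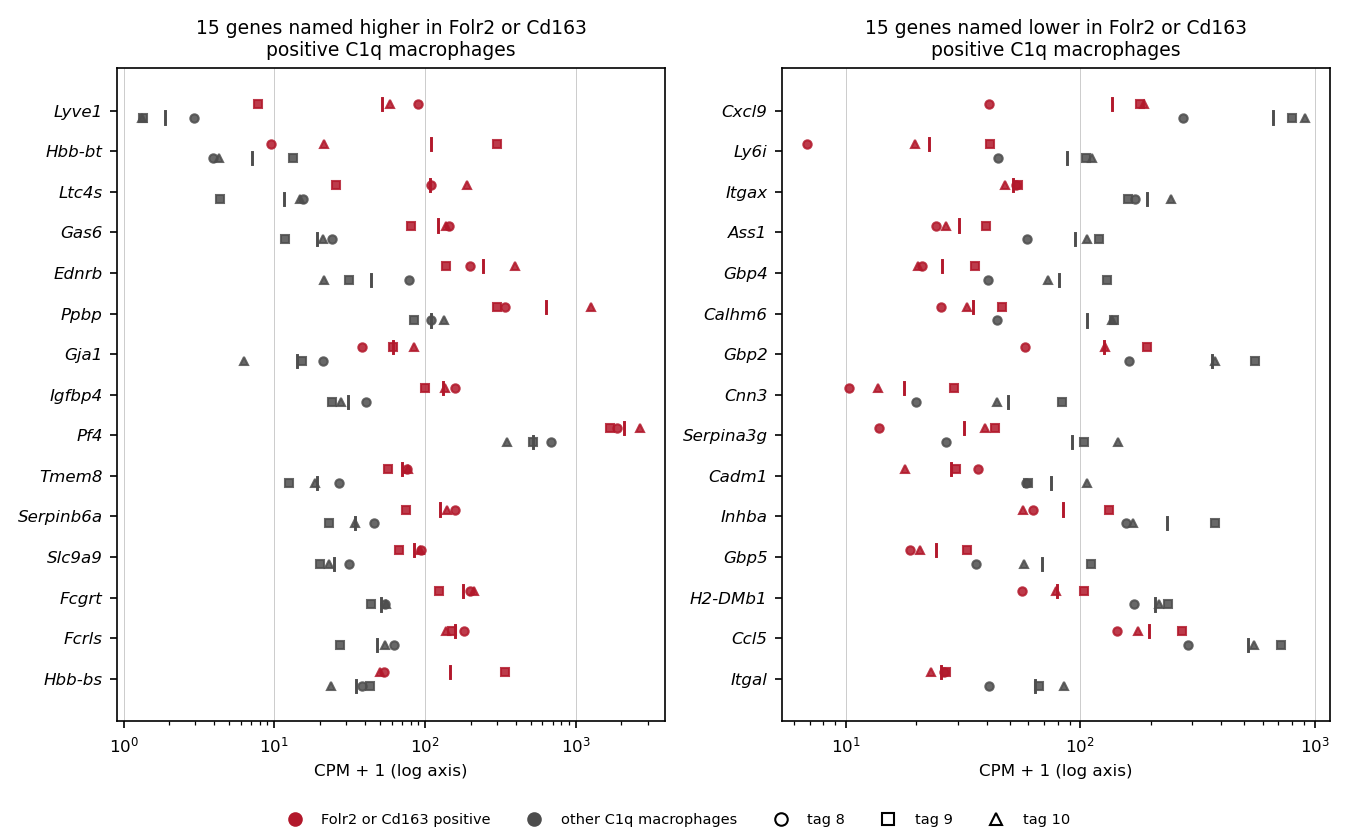
CPM + 1 on a log axis for the 15 genes named as higher (left) and the 15 named as lower (right) in positive macrophages. Each point is 1 tag (shape), with positive macrophages in red above other C1q macrophages in grey and a bar at each mean. Pf4 lies between 1685 and 2656 CPM in positive macrophages and between 347 and 681 CPM in other C1q macrophages.

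Of the 17 tested genes of the resident-type macrophage list, 14 were higher and 0 lower. Over all genes tested the shares were 3.03% and 3.71%, beside which the counts of each list below are to be read. The median log2 fold change of the list was 1.47, and that of all genes -0.01. The list was made with results of these data known, so its direction is not independent evidence. Fcna, the lectin ficolin A of the complement system, was at 33.0, 11.6 and 27.5 CPM in positive macrophages against 1.46, 3.05 and 0.990 CPM (log2 3.58, adjusted p = 0.000645; 4.60 without tag 9). Selenop, the selenium carrier, was at 2016, 1758 and 2551 CPM against 852, 662 and 709 CPM (log2 1.47, adjusted p = 9.79e-05). F13a1, the coagulation factor XIII A chain, was at 781, 595 and 1063 CPM against 391, 305 and 208 CPM (log2 1.41, adjusted p = 0.0051). Mrc1, the mannose receptor CD206, was at 1031, 894 and 957 CPM against 673, 413 and 297 CPM (log2 1.11, adjusted p = 0.00321), and missed the threshold without tag 9 (log2 1.15, adjusted p = 0.0661). None of these genes overlapped between the classes in any pair of tags. Igf1 (log2 1.52), the ubiquitin ligase Wwp1 (1.54), the scavenger receptor Stab1 (1.30), the chemokine Ccl8 (1.14) and the lectin Clec10a (0.89) rose as well. Clec10a was the one of these 5 that missed the threshold after thinning, and the list then had 11 of 14 tested genes higher. In the edgeR fit without the tag as a block 12 of 17 were higher. There Mrc1 (log2 1.03, adjusted p = 0.0599) and Ccl8 (1.08, 0.126) missed the threshold. Timd4, the phosphatidylserine receptor of many resident macrophages, was found in 0.581% of thinned positive macrophages, 0.491% of other C1q macrophages and 0.247% of T cells (0.769%, 0.709% and 0.481% before), so it was rare in both classes. Mgl2 was at 27.6, 122 and 77.1 CPM against 128, 103 and 98.7 CPM and did not pass the test (log2 -0.68, adjusted p = 0.292). Vsig4, Cd209f and Cd209g had too few molecules to be tested.

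All 7 tested genes of MHC class II presentation fell, with a median log2 fold change of -1.18. H2-Ab1, the beta chain of the class II molecule I-A, was at 1884, 3255 and 2374 CPM in positive macrophages against 4429.9, 5995 and 6484 CPM in other C1q macrophages (log2 -1.22, SE 0.11, adjusted p = 0.000143). Its partner H2-Aa was at 1882, 3135 and 2287 CPM against 4385, 5569 and 5941 CPM (log2 -1.17, adjusted p = 0.000178). The highest positive tag stayed below the lowest other tag for both. H2-Eb1 (log2 -1.25), the invariant chain Cd74 (-1.07), the peptide-loading chains H2-DMa (-1.11) and H2-DMb1 (-1.45) and the class II transactivator Ciita (-1.18) fell likewise. The list kept 7 of 7 lower calls without tag 9 and in depth-matched cells, and had 6 of 6 after thinning. In the edgeR fit without the tag as a block it had 6 of 7, and Ciita missed the threshold (adjusted p = 0.117). The 7 log2 values lay between -1.45 and -1.07.

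Of the 11 tested genes of the interferon gamma response, 10 were lower and 0 higher, with a median log2 fold change of -1.17. Cxcl9, a chemokine that draws activated T cells, was the gene that fell most among those named, at 39.6, 179 and 186 CPM in positive macrophages against 274, 802 and 906 CPM in other C1q macrophages (log2 -2.40, SE 0.12, adjusted p = 7.45e-06). The groups did not overlap, and the level differed between tags in both. Cxcl9 was found in 6.40% of thinned positive macrophages, 25.2% of other C1q macrophages and 2.53% of T cells (15.96%, 32.0% and 4.01% before thinning). Gbp2, a guanylate-binding protein, was at 57.1, 191 and 126 CPM against 161, 556 and 374 CPM (log2 -1.56, SE 0.09, adjusted p = 8.16e-06), so that its range overlapped between tags while each tag on its own was lower. Gbp5 (log2 -1.49), the inducible nitric oxide synthase Nos2 (-1.21), Iigp1 (-1.17), the checkpoint ligand Cd274 (-0.94), Irgm1 (-0.69) and Cxcl10 (-0.64) fell as well. Irf1 did not pass the test (log2 -0.45, adjusted p = 0.0651). Without tag 9 the list had 6 lower calls, and Cxcl10 (log2 -0.49, adjusted p = 0.156), Iigp1 (-0.70, 0.0883) and Irgm1 (-0.48, 0.35) were among those that missed the threshold. After thinning, 5 of 10 tested genes were lower, and in a fit without the tag as a block 0 of 11 were. Both classes had tags of quite different levels for these genes, as the Cxcl9 values show.

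The type I interferon list did less. Of its 12 tested genes only Isg15 was lower, at 285, 384 and 280.2 CPM in positive macrophages against 292, 635 and 525 CPM (log2 -0.59, adjusted p = 0.0264), and it missed the threshold without tag 9 (log2 -0.48, adjusted p = 0.262). The median of the list was -0.24 on the log2 scale, and 3.71% of all genes tested were lower. Ifit1, Rsad2, Irf7 and Oasl2 gave log2 values of -0.30, -0.35, -0.27 and 0.04 and did not pass. The difference between the lists was not tested.

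**Figure D4:**
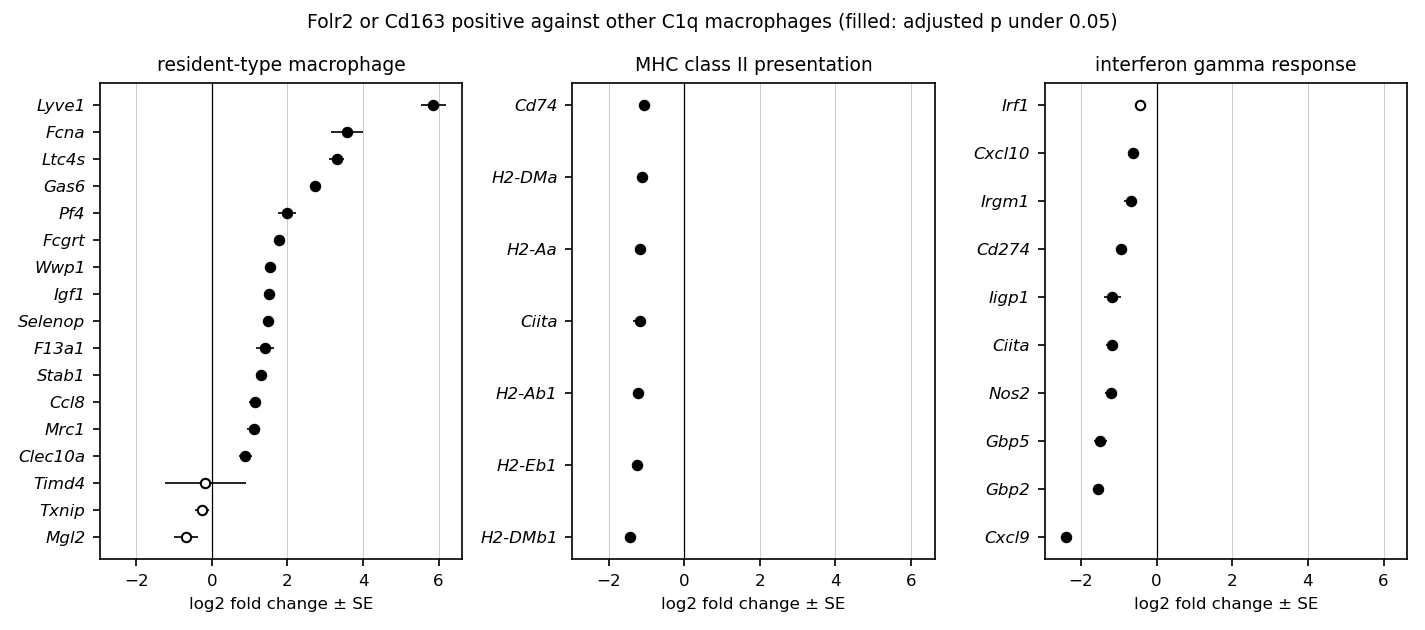
Log2 fold change of positive against other C1q macrophages for the reported genes of the resident-type macrophage, MHC class II and interferon gamma lists. Bars show the SE of each value, derived from the F statistic of the test. Filled points passed the test; Lyve1 lies at 5.86 and Cxcl9 at -2.40.

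The other genes named as lowest include adhesion molecules and enzymes. Itgax, the integrin CD11c of dendritic cells and many macrophages, was at 52.4, 53.0 and 46.9 CPM in positive macrophages against 169.8, 159 and 244 CPM in other C1q macrophages (log2 -1.95, SE 0.14, adjusted p = 2.73e-05). Its values were nearly level over the positive tags. Itgal, the alpha chain of LFA-1, was at 25.2, 25.8 and 22.1 CPM against 39.8, 65.8 and 83.9 CPM (log2 -1.39, adjusted p = 0.00218). Ccl5, a chemokine for T cells and monocytes, was at 143, 270.5 and 175 CPM against 288, 714 and 552 CPM (log2 -1.39, adjusted p = 5.32e-05). Inhba, the activin A subunit, was at 62.1, 132 and 55.9 CPM against 156, 376 and 167 CPM (log2 -1.50, adjusted p = 1.15e-05). Ass1, the enzyme that joins citrulline and aspartate toward arginine, was at 23.3, 38.7 and 25.7 CPM against 58.2, 119 and 106 CPM (log2 -1.72, adjusted p = 7.94e-05). Ly6i (log2 -2.19), Gbp4 (-1.66), Calhm6 (-1.61), the calponin Cnn3 (-1.54), Serpina3g (-1.53) and the adhesion molecule Cadm1 (-1.52) also fell, with adjusted p of at most 0.00983. Cadm1 missed the threshold without tag 9 (log2 -1.67, adjusted p = 0.0691) and was -0.90 without tag 10.

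Promoters of genes that moved together are shown for Ednrb and Fcrls, both higher and with the half-site TGCTGA of the MAF family in the window, and for Gbp2 and Gbp5, both lower and with the core AANNGAAA bound by interferon regulatory factors. Each is the RefSeq promoter of GRCm38.p6, 250 bases before to 50 after the start, read on the gene's strand, with the matches on either strand in capitals. Overlapping matches, as in Gbp5, run together.

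Ednrb, chr14:103843652-103843951, minus strand: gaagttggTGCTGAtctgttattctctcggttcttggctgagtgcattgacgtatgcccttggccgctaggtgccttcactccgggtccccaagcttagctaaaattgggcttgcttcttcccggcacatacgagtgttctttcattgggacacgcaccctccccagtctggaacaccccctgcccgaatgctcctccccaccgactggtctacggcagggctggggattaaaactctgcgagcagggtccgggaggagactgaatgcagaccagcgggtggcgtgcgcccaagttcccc
Fcrls, chr3:87263475-87263774, minus strand: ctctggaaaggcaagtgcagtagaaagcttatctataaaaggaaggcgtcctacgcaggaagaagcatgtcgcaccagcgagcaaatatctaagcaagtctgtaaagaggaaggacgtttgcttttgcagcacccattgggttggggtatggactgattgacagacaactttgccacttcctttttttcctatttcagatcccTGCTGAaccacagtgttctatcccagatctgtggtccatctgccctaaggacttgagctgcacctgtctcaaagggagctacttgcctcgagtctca
Gbp2, chr3:142620413-142620712, plus strand: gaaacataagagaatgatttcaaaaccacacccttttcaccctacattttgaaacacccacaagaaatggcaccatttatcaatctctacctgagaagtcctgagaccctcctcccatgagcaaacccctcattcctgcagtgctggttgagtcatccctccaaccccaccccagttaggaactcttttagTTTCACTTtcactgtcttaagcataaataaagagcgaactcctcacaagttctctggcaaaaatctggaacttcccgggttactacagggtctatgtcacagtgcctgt
Gbp5, chr3:142496684-142496983, plus strand: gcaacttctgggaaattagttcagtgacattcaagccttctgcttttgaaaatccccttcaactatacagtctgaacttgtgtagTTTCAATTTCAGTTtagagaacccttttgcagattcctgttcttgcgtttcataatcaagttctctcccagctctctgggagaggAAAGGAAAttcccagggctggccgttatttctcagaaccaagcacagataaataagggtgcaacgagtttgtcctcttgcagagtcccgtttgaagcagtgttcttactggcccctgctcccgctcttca

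Of the 30 named genes, 23 matched a RefSeq promoter. TGCTGA was in 4 of 14 promoters of the named higher genes and in 0 of 10 of the named lower genes, against 19.5% of all 32851 promoters. Over all called genes it was in 22.9% of 293 promoters of higher genes and 15.3% of 347 of lower genes, against 14.5% of the 9448 promoters of genes tested. AANNGAAA was in 2 of 14 and 3 of 10 promoters of the named genes and in 19.5% and 26.8% of those of called higher and lower genes, against 18.5% of tested and 23.9% of all promoters. TTCNNNGAA, the interferon gamma activation site, was in 1 of 14 and 2 of 10, and in 5.46% and 9.80% of called promoters, against 6.88% and 8.30%. These are counts of letters in a short window, given as a description, and they name no factor as acting.

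In the heme and iron list 4 of 12 tested genes were higher and 0 lower in positive macrophages, with a median log2 fold change of 0.49. Hmox1, heme oxygenase, was at 2281, 1570.1 and 3559 CPM in positive macrophages against 1494, 1054 and 929 CPM (log2 1.01, adjusted p = 0.026), and missed the threshold without tag 9 (log2 1.27, adjusted p = 0.0847). Slc40a1, the iron exporter ferroportin, was at 95.1, 21.8 and 59.9 CPM against 28.1, 9.84 and 16.5 CPM (log2 1.64, adjusted p = 0.00026), with the tag 9 value of positive macrophages below the tag 8 value of the others. The heme transporter Slc48a1 (log2 1.01) and biliverdin reductase Blvrb (0.81) rose too, Blvrb not without tag 8 (0.65, adjusted p = 0.0825). The ferritins Fth1 (log2 -0.03) and Ftl1 (0.33) and the transferrin receptor Tfrc (0.24) did not pass.

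The lipid-associated list, a state described in fat, plaques and tumours, was split, with 5 of 14 tested genes higher and 2 lower (median log2 fold change 0.16). In depth-matched cells 3 were higher and 3 lower, without the tag as a block 0 and 1, and with the class cut on Cd163 alone 0 and 5. That last cut is another contrast, since its comparison cells are all C1q macrophages without Cd163, positive macrophages among them. Trem2, the lipid-sensing receptor that defines that state, was at 293, 247 and 324 CPM in positive macrophages against 192, 149 and 227 CPM (log2 0.59, adjusted p = 0.00206). Apoe (log2 0.52), the lysosomal lipase Lipa (0.52), the fatty acid receptor Cd36 (0.74) and the cholesterol exporter Abca1 (0.61) were higher, while Cd9 (-0.62) and the oxysterol receptor Nr1h3 (-0.90) were lower. Spp1, at 952, 723 and 1311 CPM against 1039, 698 and 1479 CPM, and Gpnmb (log2 0.19) did not pass. Without tag 9 only Trem2 and Abca1 among these passed, since Apoe (0.45, adjusted p = 0.129), Lipa (0.49, 0.127), Cd36 (0.80, 0.202), Cd9 (-0.38, 0.222) and Nr1h3 (-0.80, 0.0847) missed the threshold. Cd9 missed it without tag 8 as well (-0.64, 0.0622).

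Among receptors for uptake, 3 of 12 tested genes were higher (Marco, Cd36 and Stab1) and Axl was lower. Marco was at 12.03, 9.52 and 5.74 CPM in positive macrophages against 0.485, 2.04 and 2.31 CPM (log2 2.29, adjusted p = 0.019). It missed the threshold without tag 8 (1.73, adjusted p = 0.0775) and without tag 9 (2.38, adjusted p = 0.127), and was 2.90 without tag 10. In the complement list, 5 of 9 tested genes were higher, among them C3ar1, C5ar1, C4b and Cfp, and C3 and Itgax were lower. C3, the central complement protein, was at 48.5, 76.8 and 27.8 CPM against 66.0, 145 and 138 CPM (log2 -1.27, adjusted p = 0.0141). Without tag 9, C3 (-1.42, adjusted p = 0.102), C3ar1 (0.48, 0.0965), C5ar1 (0.63, 0.113) and Cfp (0.63, 0.135) missed the threshold, as did C4b without tag 10 (0.53, 0.159). Of the 5 tested Fc receptor genes 0 passed in edgeR's test and 0 in DESeq2. Fcgr4 was the 1 with an unadjusted p under 0.05 in edgeR (log2 -0.49, adjusted p = 0.0702).

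The secreted signals of the classes differed gene by gene. Of 10 CC chemokines, Ccl2, Ccl7 and Ccl8 were higher and Ccl5 was lower. Ccl8 was at 401, 562 and 734 CPM in positive macrophages against 135, 359.9 and 292 CPM (log2 1.14, adjusted p = 0.00114), and Ccl7 at 2748, 2317 and 1729 CPM against 2037, 1374 and 957 CPM (log2 0.65, adjusted p = 0.0051). Without tag 9 Ccl7 (0.64, adjusted p = 0.0925) and Ccl2 (0.44, 0.226) missed the threshold, and Ccl2 also without tag 10 (0.32, 0.0642). Of 8 CXC chemokines, Pf4 was higher and Cxcl9, Cxcl10 and Cxcl16 were lower. Of 10 inflammatory cytokine genes, 5 were lower and 0 higher. Il1b was at 3104, 3036 and 2139 CPM against 4739, 5082 and 3013 CPM (log2 -0.64, adjusted p = 0.00275) and Tnf at 1164, 1266 and 1190 CPM against 1397, 1727 and 1825 CPM (log2 -0.47, adjusted p = 0.0118). Both missed the threshold without tag 9 (-0.56, adjusted p = 0.0818, and -0.44, adjusted p = 0.144). The receptor antagonist Il1rn (log2 -0.76), Nos2 and Il23a (-1.35) fell as well.

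Il10, the regulatory cytokine, was at 883, 1097 and 860.0 CPM in positive macrophages against 624, 614 and 430 CPM in other C1q macrophages (log2 0.75, adjusted p = 0.00256; without tag 9 0.75, adjusted p = 0.0641). It was the only gene higher among 11 suppressive and regulatory genes, of which Cd274, Pdcd1lg2, Havcr2 and Lilrb4a were lower. Among all genes tested, 3.03% were higher and 3.71% lower. The checkpoint ligand Cd274 was at 122, 290.2 and 166 CPM against 236, 513 and 328 CPM (log2 -0.94, adjusted p = 0.000128). Pdcd1lg2 (-1.39, adjusted p = 0.0909) and Lilrb4a (-0.46, 0.113) missed the threshold without tag 9, and Lilrb4a without tag 8 (-0.36, 0.143). Arg1 was at 1489, 1259 and 2295 CPM against 1172, 924 and 557 CPM and did not pass (log2 0.91, adjusted p = 0.0845).

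Growth factor and matrix genes gave 2 higher and 4 lower of 15. Igf1, insulin-like growth factor, was at 167, 110.1 and 185 CPM in positive macrophages against 39.3, 36.0 and 86.5 CPM (log2 1.52, adjusted p = 0.000238), and the metalloprotease inhibitor Timp2 at 331, 212 and 384 CPM against 115, 89.6 and 145 CPM (log2 1.37, adjusted p = 1.65e-05). The metalloproteases Mmp12 (log2 -1.20) and Mmp14 (-0.72), Pdgfb (-1.08) and Tgfbi (-0.80) were lower. Mmp12 was at 99.0, 110.1 and 56.5 CPM against 287, 179 and 133 CPM, groups that did not overlap. Vegfa did not pass (log2 -0.39, adjusted p = 0.0667), and of the 14 glycolysis and hypoxia genes only Slc2a1 (-0.49) and Hk2 (-0.38) were lower. Without tag 9 neither passed (Slc2a1 -0.42, adjusted p = 0.206; Hk2 -0.42, 0.115). Slc2a1 also missed the threshold without tag 8 (-0.40, 0.0997), and Hk2 without tag 8 (-0.33, 0.143) and without tag 10 (-0.35, 0.0516).

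Of 12 lysosomal genes, the cathepsins Ctsb (log2 0.45), Ctsd (0.68) and Ctsl (0.85) and Lamp1 (0.40) were higher and 0 lower, and 0 passed without tag 9, where Ctsb was at 0.44 (adjusted p = 0.158), Ctsd at 0.62 (0.0561), Ctsl at 0.99 (0.0645) and Lamp1 at 0.44 (0.158). Ctsb and Lamp1 also missed the threshold without tag 8 (0.52, adjusted p = 0.0543, and 0.46, 0.0554). Ctsd stood at 916, 720.5 and 1053 CPM in positive macrophages against 636, 388 and 641 CPM in other C1q macrophages.

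Of 18 transcription factor genes, Maf was higher and Irf8 and Nr1h3 were lower, beside 3.03% and 3.71% of all genes tested. Maf, which drives macrophage maturation, was at 896, 591 and 688 CPM in positive macrophages against 503, 363 and 350 CPM (log2 0.81, adjusted p = 0.000555), with no overlap. Irf8 was at 154, 178 and 164 CPM against 189, 310.4 and 251 CPM (log2 -0.60, adjusted p = 0.006; without tag 9 -0.46, adjusted p = 0.0986). Spi1 (log2 -0.09) and Cebpb (-0.02) did not pass. Of 10 growth factor receptor genes, the GM-CSF receptor chains Csf2ra (log2 -0.49) and Csf2rb (-0.87) and Tgfbr1 (-0.50) were lower, and the F4/80 gene Adgre1 (0.56) and Il4ra (0.44) higher. Csf2rb was at 201, 317 and 240.0 CPM against 368, 509.9 and 468 CPM. Without tag 9 Csf2ra (-0.44, adjusted p = 0.116), Tgfbr1 (-0.47, 0.152) and Adgre1 (0.49, 0.108) missed the threshold. Tgfbr1 also missed it without tag 8 (-0.52, 0.0501) and tag 10 (-0.47, 0.107), and Il4ra without tag 8 (0.41, 0.113) and tag 10 (0.35, 0.0835). Csf1r, the receptor on which macrophages depend, was at 566, 519 and 588 CPM against 553, 485 and 589 CPM and did not pass (log2 0.02, adjusted p = 0.949).

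**Figure D5:**
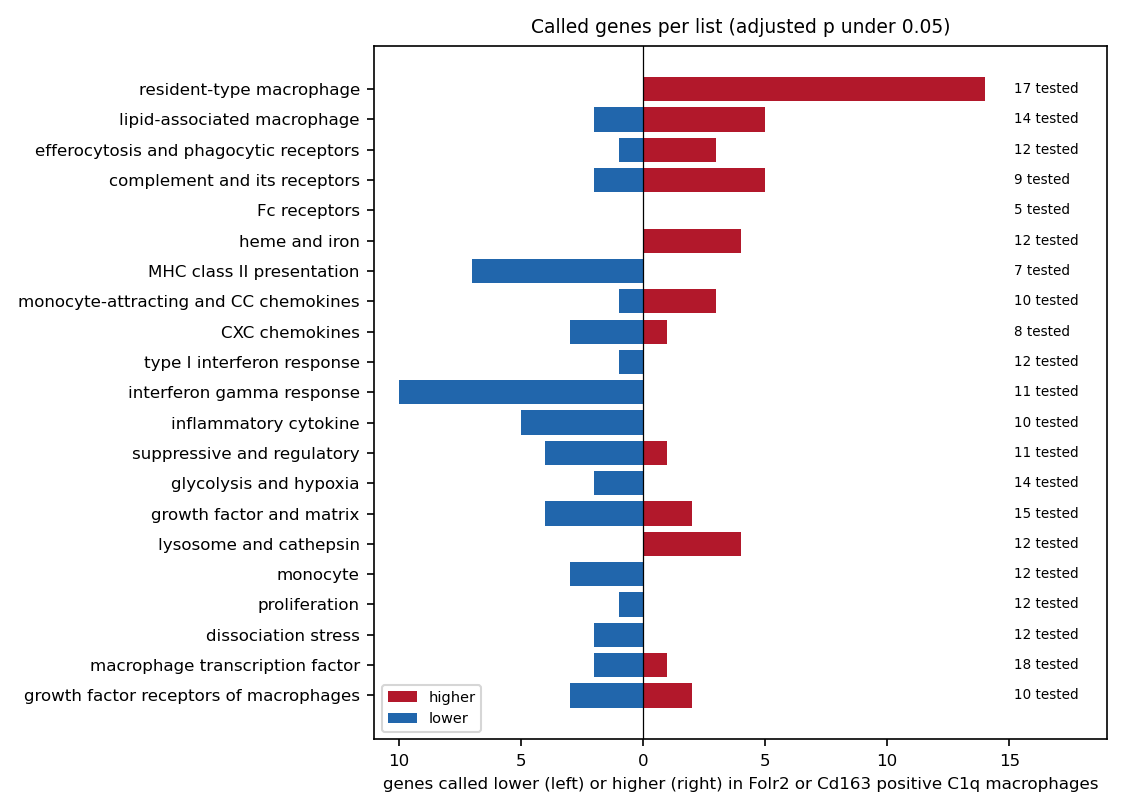
Number of genes called lower (left of 0) and higher (right of 0) in positive macrophages for each of 21 lists, with the number tested at the right edge. The resident-type list has 14 higher of 17, the MHC class II list 7 lower of 7 and the interferon gamma list 10 lower of 11.

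Monocyte genes were lower where they differed, in 3 of 12. Ly6c2, the antigen of inflammatory monocytes, was at 2679 CPM over the tags together in the monocytes, which were chosen by Ly6c2 or Chil3. In positive macrophages it was at 355, 479 and 294 CPM, against 448, 827 and 1088 CPM in other C1q macrophages (log2 -1.04, adjusted p = 0.0153). Plac8 (log2 -0.80) and Ms4a4c (-0.46) fell with it. Without tag 9 none of the 3 passed (Ly6c2 -1.12, adjusted p = 0.117; Plac8 -0.74, 0.176; Ms4a4c -0.59, 0.0681), and Ms4a4c missed the threshold without tag 8 (-0.48, 0.0832) and tag 10 (-0.28, 0.106) as well. Ccr2 was at 538, 447 and 463 CPM against 574, 526 and 436 CPM and did not pass (log2 -0.11, adjusted p = 0.619). Of 12 proliferation genes Top2a was lower (log2 -0.997, adjusted p = 0.0205; without tag 8 -0.96, 0.0687), while Mki67 was found in 7.56% of thinned positive macrophages and 7.85% of other C1q macrophages (25.6% and 21.5% before thinning, in T cells 13.5% and 21.2%). Of 12 genes of dissociation stress, Hspa1a (log2 -0.74) and Hspa1b (-1.02) were lower. Beside the counts of these lists, 3.71% of all genes tested were lower.

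Cells were marked as mixed with at least 2 molecules of the melanoma, B cell, NK cell or fibroblast list, or of Cxcr2 and Csf3r together. The neutrophil genes S100a8 and S100a9 did not count for this mark. It was met by 195 positive macrophages (37.5%) and 222 other C1q macrophages (26.2%), at the depths given above. For melanoma markers alone the shares were 20.8% and 12.9%, and for the whole neutrophil list of 4 genes 19.4% and 16.5%. Summed over its 4 genes, the mast cell list was at 7.25 to 9.32 CPM in positive macrophages and 2.91 to 413 CPM in other C1q macrophages, where tag 10 alone was high, and Cpa3 and Mcpt4 were called lower through it (log2 -3.97 and -4.01). Without the cells that carried these markers, 278 genes were higher and 344 lower. Dendritic cell markers were at 66.8 to 108 CPM against 85.5 to 159.6 CPM over 6 genes, of which Cd209a was called higher (log2 1.22) and Clec9a lower (-2.10). Endothelial markers were at 29.9 to 44.9 against 48.5 to 68.4 CPM with Pecam1 lower (-1.09), neutrophil markers at 61.2 to 109 against 71.9 to 195 CPM, melanoma markers at 53.0 to 91.6 against 61.1 to 110 CPM and monocyte markers at 1171 to 1554 against 1616 to 2514 CPM. Eosinophil markers were at 7.25 to 16.7 against 6.79 to 7.92 CPM, with Ccr3 called higher (log2 1.31). T cell markers were at 15.9 to 16.3 against 12.6 to 18.3 CPM, B cell markers at 10.9 to 19.4 against 7.12 to 21.1 CPM, NK cell markers at 9.52 to 30.8 against 4.37 to 13.9 CPM, with Ncr1 at 0 in positive macrophages, and fibroblast markers at 16.7 to 31.9 against 9.70 to 27.4 CPM. Without the 195 and 222 cells marked as mixed, 186 genes were higher and 198 lower. The resident-type list then had 12 of 15 tested genes higher and Mgl2 lower, the MHC class II list 7 of 7 lower and the interferon gamma list 5 of 11 lower (median log2 fold change -0.73).

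Within the class, cells with and without Cd163 differed in some genes. Only 8 positive macrophages of tag 9 had Cd163, and no test was run, so values are given for the 29 such cells of tag 8 and the 43 of tag 10 beside the 152 and 179 without it, as a description. Lyve1 was at 349 and 158 CPM in cells with Cd163 against 23.3 and 29.7 CPM in those without. Gas6 was at 274 and 254 CPM against 111 and 105 CPM, Ednrb at 378 and 799.8 CPM against 153 and 279 CPM, and Fcgrt at 403 and 381 CPM against 147 and 163 CPM. In the other direction, Cxcl9 was at 5.79 and 7.003 CPM in cells with Cd163 against 48.1 and 235 CPM, Gpnmb at 73.3 and 70.0 CPM against 392 and 249 CPM, and Cd9 at 57.9 and 123 CPM against 222 and 289.9 CPM. Igf1 and Ccl8, of the resident-type list, were not of 1 direction, at 311 and 118 CPM in cells with Cd163 against 131 and 204 CPM for Igf1, and at 1195 and 604 CPM against 201 and 769 CPM for Ccl8. Cd36, higher in the class, was at 587 and 745 CPM against 664 and 866 CPM. These genes were picked after their values were seen. Cells with Cd163 were deeper, with median molecules of 16173 and 16823 against 12168 and 13791. S100a9, a neutrophil gene, was at 92.6 and 109 CPM in them against 15.1 and 6.17 CPM, and the part of neutrophil RNA in these cells was not tested.

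The cells that entered through Folr2 without Cbr2 and those through Cbr2 without Folr2, 29 and 36 in tag 8, 23 and 25 in tag 9 and 44 and 29 in tag 10, also differed in some genes. Mmp12 was at 139.7, 188 and 124 CPM in Folr2 cells against 57.9, 3.65 and 31.9 CPM in Cbr2 cells, and Adam8 at 714, 903 and 757 CPM against 361, 229.9 and 287 CPM. Gas6 pointed the other way, at 44.9, 7.25 and 29.3 CPM in Folr2 cells against 118, 32.8 and 66.4 CPM in Cbr2 cells. Lyve1 was at 0 to 4.99 CPM in both subsets, and 225, 10 and 189 of its molecules lay in cells with both genes. These genes were picked after their values were seen, in small subsets with no test.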

How the data were processed

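The deposited count table gives molecules per cell and gene; per the file headers it was made with BD's Rhapsody pipeline for multiplexed WTA, version 1.9.1, with molecule counts corrected by RSEC, on GRCm38 with GENCODE vM19, while the submitters' processing notes name GRCm39. The file headers were followed, and gene coordinates are those of GENCODE vM21 on GRCm38. Sample tag calls were read from the deposited calls. The 1448 cells called as multiplets by tag and the 361 undetermined ones were left out, and no doublet caller was run; the limit of 1 T gene molecule belongs to the rule.

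Molecule counts were summed per class and tag (6 sums, 1471227 to 3308160 molecules) and tested with edgeR 4.0.16 (quasi-likelihood, TMM, R 4.3.3) over genes with at least 10 molecules in at least 3 sums. Genes of the rule and mitochondrial genes stayed in the totals and out of the test. Positive and other C1q macrophages of 1 tag come from the same pool of cells, so the tag was a block. CPM is a count over the class total. Each SE of an edgeR log2 fold change was derived from the test, as the size of that value over the root of its F statistic. The 15 highest and 15 lowest named genes were called, moved the same way in 3 of 3 tags and reached 50 CPM in the higher class; gene lists were counted whole, and a few of their genes are not reported here by name. Members, lists and tests were chosen with earlier results of these data known. On simulated data with 9352 genes in the fit, 50 of 50 genes raised 4-fold, 42 of 50 raised 2-fold, 37 of 50 lowered 2-fold and 44 of 50 lowered 4-fold were called for this comparison, and 5 of 9158 unchanged genes. The simulation gave all genes the same dispersion and each gene the same mean level in every tag. These rates therefore need not hold for the measured data, where tags differed. Alternatives included DESeq2 1.42.0, thinning, depth matching and leaving out each tag. The test planned between positive macrophages with and without Cd163 was not run, since tag 9 had 8 such cells and a minimum of 20 per tag had been set. Intervals are exact Clopper-Pearson intervals and cover counting error only.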

Additional observations from a re-analysis of the deposited data

Results flagged for a closer look

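A signal also lay in cells outside the comparisons. Of the 216 C1q macrophages among cells called as multiplets by tag, 100 met the rule for Folr2, Cd163 and Cbr2, a share of 46.3% (exact 95% Clopper-Pearson interval 39.5 to 53.2), beside 38.1% in cells with a single tag. The 175 filtered cells with an undetermined tag held 0 C1q macrophages. The part of cells captured in pairs in the first share was not tested.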

How the results depend on the processing

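Counts of genes higher and lower in positive macrophages, 282 and 346, were within 1.5 times under at least 500 detected genes, a mitochondrial limit of 10%, RLE size factors, scaling without mitochondrial and ribosomal protein genes, depth matching, Folr2 alone, and at least 4 molecules against 0. They were also within it under the alternatives chosen after seeing the data: without cells with mast cell or basophil markers, and with comparison cells that had none of the 3 genes. They moved to 186 and 198 without cells with other cell type markers, to 129 and 128 after thinning (5366 genes tested), to 121 and 143 in DESeq2, and to 115 and 202 with Cd163 alone. With no filter on low counts 481 genes were higher. Leaving out each tag gave 135 to 246 higher and 121 to 360 lower. Without the replicate block, the tag, 114 and 75 were called; the cause was not tested.

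With Cd163 alone, cells with at least 2 Cd163 molecules (17, 3 and 27 cells) were set against all C1q macrophages with none. Those comparison cells include positive macrophages without Cd163. Among named or listed genes, 9 that were called in this fit or the main one changed sign on the log2 scale: Ccl24 (1.32), Cd36 (-0.73), Gpnmb (-2.84), Hbb-bs (-2.12), Hbb-bt (-3.71), Hspa1a (0.030), Ifit3 (-1.33), Il1a (-0.92) and Slc40a1 (-0.021). Of all genes called in the main fit and tested here, 267 of 278 higher and 345 of 346 lower ones kept their sign.

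The share of C1q macrophages in tags 8, 9 and 10 was 62.2%, 40.0% and 52.2% with at least 1 molecule of the 3 genes, 33.6%, 16.7% and 29.2% with at least 4, 57.8%, 34.7% and 48.2% with at least 30 C1q molecules, and 25.2%, 11.9% and 21.0% with the rule applied to thinned cells. Tag 9 was lowest under each. The alternatives planned for cells with against without Cd163 were not run, as that test was not. Depth limits the genes that could be tested: thinning left 5366 of 9315.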
